A study of Sus scrofa with 15 samples.

Results

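LLC-PK1 cells carrying a plasmid for a truncated human polycystin-2 (Tg3) were compared with LLC-PK1 cells carrying the same plasmid without any PKD2 gene (NC). The comparison used 6 of the 15 RNA-seq libraries of the series, 3 for Tg3 and 3 for NC, chosen by their labels, and 11553 of the 16660 genes in the deposited table, those with a mean of 2 or more CPM (counts scaled to a common library size) over all 15 libraries. LLC-PK1 is an established pig cell line with features of the kidney proximal tubule. The Tg3 plasmid is FLAG-floxP-neo-pH11 with PKD2 c.C2224T/p.R742X, a change that puts a stop codon in the C-terminal part of the protein. NC received the backbone with no PKD2 gene, named FLAG-floxP-neo-pH11 in the labels and pCAG-floxP-neo-pH11 in the study's methods. The other 9 libraries, 3 for each plasmid, came from cells given normal human PKD2 (WT), the p.D511V mutant (Tg1) or the p.L656W mutant (Tg2) in the same backbone. They served to estimate the spread between replicates and to show where Tg3 differed from the other plasmids.

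Polycystin-2, the product of PKD2, is a cation channel of the primary cilium and the endoplasmic reticulum, and it works in a complex with polycystin-1, the product of PKD1. Inherited loss of either gene causes autosomal dominant polycystic kidney disease, in which tubule cells lose their differentiated state, proliferate and form fluid-filled cysts. The C-terminal part that p.R742X removes includes the stretch through which polycystin-2 binds polycystin-1. As a model the design has several limits. Expression was driven by the strong CAG promoter in a transient transfection, the cells kept their own PKD genes, and a stop codon at this place also removes the FLAG tag at the end of the protein. Counts for the human transgene and for pig PKD2 are not analysed here, so the plasmid labels were not checked against the targeted gene. The labels do not say how the 3 replicates of a group arose. Per the study's methods they were separate transfections of 1 cell line in multi-well plates, so p-values measure the spread between such transfections.

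Library totals were 20216200 to 23810062 counts for Tg3 and 22107982 to 26132196 for NC, and the genes tested held 99.83% of all counts. No pair of replicate libraries agreed within counting noise (chi-square per degree of freedom of 3.87 to 16.5 within NC and 2.90 to 10.4 within Tg3), and in both groups the replicate 2 library stood farthest from the other two. All 8 markers of proximal tubule cells were present in every library (marker values are CPM of the library total, without TMM scaling), from SLC9A3 at 19.3 to 36.0 CPM to PDZK1 at 268 to 433 CPM. The summed level of these 8 markers was 1149 to 1287 CPM in NC and 879 to 1028 CPM in Tg3. Defining markers of most other cell types were at or near 0, with NPHS1 (podocytes) at no more than 0.198 CPM, CDH5 (endothelium) at no more than 0.0452, PTPRC (leukocytes) at no more than 0.0399 and UMOD (thick ascending limb) at no more than 0.226. The markers outside the proximal tubule that did pass the filter were SLC12A1, EMCN and CD68, 4 genes of the collecting duct, SYNPO, CD3E and the collagen gene COL1A2 at 930 to 992 CPM in NC and 853 to 904 CPM in Tg3. Summed levels were 59.3 to 61.3 CPM in NC and 56.7 to 63.1 CPM in Tg3 for the collecting duct list, 25.7 to 27.3 and 24.5 to 25.6 CPM for the leukocyte list and 3.07 to 3.44 and 4.12 to 4.60 CPM for the endothelium list, and their part in the results was not tested.

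At an unadjusted p, differences between Tg3 and NC were many and small, and most members of several gene lists differed in the same direction. The lists were written with earlier results of these data known, so their choice may have favoured a common direction. Most genes for making ribosomes and copying DNA, interferon-induced genes and NF-kappa B target genes had higher mean levels in Tg3, whereas most proximal tubule transporters and enzymes, the mitochondrially encoded genes and genes of autophagy had lower ones. No single gene passed the main test, which did not pair libraries by replicate number. A fit with a replicate block over all 15 libraries called 11 genes. In several lists, interferon-induced genes first, the count of genes at a small p depended on 1 library. In edgeR's quasi-likelihood test over all 15 libraries, 0 of 11553 genes (0.0%) reached an adjusted p of 0.05 together with a log2 fold change of at least 0.26 in size, and the smallest adjusted p was 0.113. At an unadjusted p under 0.05 there were 2089 genes, of which 1010 (8.74% of those tested) were higher and 1079 (9.34%) lower in Tg3. DESeq2, fitted to the same genes, called 52, with 30 higher and 22 lower. Its smallest adjusted p was 0.0012 (TNFRSF21 and RASGEF1C). By default DESeq2 leaves genes with low mean counts out of its adjustment, so its adjusted p and that of edgeR cover unlike sets of genes. The 52 calls among 11553 genes fitted included 5 of 25 genes of proximal tubule transport and 5 of 30 immediate early genes. They included 4 of 56 ribosome biogenesis genes, 4 of 35 autophagy genes and 3 of 31 proximal tubule enzymes. There were 2 calls each in the NF-kappa B (34 genes), DNA replication (40), glycolysis (30), injury (28) and antioxidant (27) lists. The mitochondrial (13 genes), antigen presentation (22) and p53 (31) lists had 1 each. The other 7 lists, of 17 to 52 genes and the interferon list among them, had 0. Therefore the genes named here are described by their levels in each library and none is a call of the main test.

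The size of the differences was modest. The median absolute log2 fold change was 0.08, and 6 genes differed by 1 or more on the log2 scale. In 1553 genes (13.4%) every Tg3 library lay above every NC library, and in 1604 (13.9%) every Tg3 library lay below. At that p and with a fold of at least 0.26 on the log2 scale, 320 genes were higher and 392 lower. Leaving out Tg3 replicate 2 or NC replicate 3 brought the count at an unadjusted p under 0.05 to 1070 and 1091 genes.

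**Figure D1:**
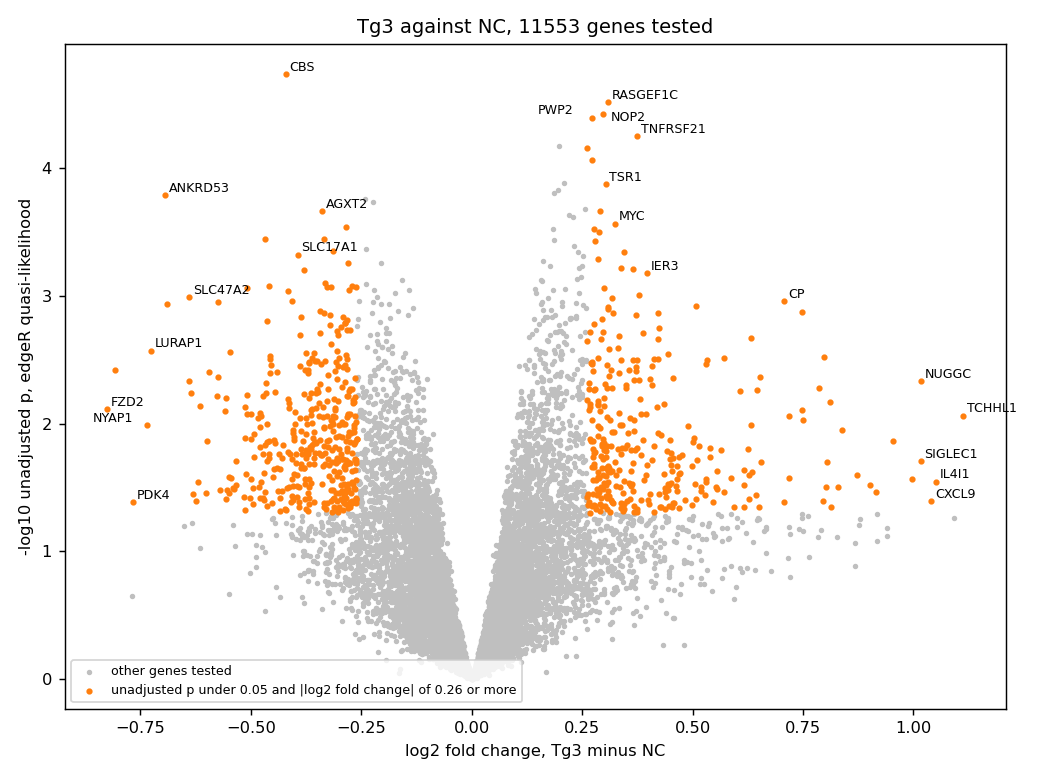
Each point is 1 of 11553 genes, with the log2 fold change of Tg3 against NC on the horizontal axis and −log10 of the unadjusted edgeR quasi-likelihood p on the vertical axis. Orange points (320 higher and 392 lower) have an unadjusted p under 0.05 and a log2 fold change of at least 0.26 in size, and none of them reached an adjusted p of 0.05.

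Most ribosome biogenesis genes were higher in Tg3. Of 56 genes tested, 53 were higher and 3 lower, 38 were higher at an unadjusted p under 0.05 and 0 lower, and the median log2 fold change was 0.16 against −0.0018 over all genes tested. Leaving out single libraries left 27 to 41 of them higher at that p. NOP2 (ENSSSCG00000000696), a methyltransferase of the large ribosomal RNA, was measured at 58.1, 57.3 and 55.5 CPM in the NC libraries and at 70.7, 72.1 and 67.4 CPM in the Tg3 libraries. Its 3 Tg3 libraries all lay above the NC libraries, and its log2 fold change was 0.30 ± 0.05 (SE; adjusted p = 0.113, edgeR). TSR1, needed to mature the small ribosomal subunit, stood at 59.9, 67.9 and 64.1 CPM in NC and at 79.6, 80.8 and 76.6 CPM in Tg3. PWP2, a component of the small subunit processome that the list did not include, stood at 49.2, 50.3 and 45.7 CPM in NC and at 59.2, 59.1 and 57.1 CPM in Tg3. For both genes the groups were apart, with log2 fold changes of 0.30 ± 0.06 (TSR1; adjusted p = 0.139, edgeR) and 0.27 ± 0.05 (PWP2; adjusted p = 0.113). REXO4, an exonuclease of the nucleolus, had a log2 fold change of 0.29 ± 0.06, and DDX21, a nucleolar RNA helicase, one of 0.22 ± 0.05.

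Replicates lay close together in the list as a whole. Taking for each library the median over the 56 genes of the log2 level minus the NC mean, the NC libraries stood at 0.01, 0.03 and −0.05 and the Tg3 libraries at 0.17, 0.19 and 0.13. The WT libraries, from cells given full-length PKD2, stood at 0.00, 0.04 and −0.07, within or close to the NC range. Hence the Tg3 libraries lay above all 6 NC and WT libraries. Of the 20 lists examined, only ribosome biogenesis and DNA replication had Tg3 libraries above all NC and WT libraries. This was not particular to Tg3, since the Tg2 medians for ribosome biogenesis were 0.18, 0.20 and 0.13. The median log2 fold change of the ribosome biogenesis list for Tg3 against Tg2 was −0.007.

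DNA replication genes were higher in Tg3 in 37 of 40 cases, 23 of them at an unadjusted p under 0.05, with 0 lower at that p and a median log2 fold change of 0.19. Leaving out single libraries left 16 to 29 higher at that p. MCM4, a subunit of the replicative helicase, was at 390, 399 and 368 CPM in NC and at 433, 446 and 437 CPM in Tg3, a log2 fold change of 0.18 ± 0.04 (adjusted p = 0.143, edgeR). E2F7, a cell cycle transcription factor that represses other E2F targets, was at 47.9, 49.5 and 45.2 CPM in NC and at 58.5, 59.4 and 54.9 CPM in Tg3, a log2 fold change of 0.28 ± 0.06. In both genes the lowest Tg3 library was above the highest NC library. The 6 subunits of the MCM helicase (MCM2 to MCM7) had log2 fold changes of 0.14 to 0.23, and the clamp protein gene PCNA one of 0.24. The list medians of the Tg3 libraries were 0.15, 0.27 and 0.17, against 0.00, 0.07 and −0.07 in NC and −0.07, 0.05 and −0.08 in WT. Those of the Tg2 libraries, at 0.23, 0.23 and 0.14, were also above all NC and WT libraries.

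Genes of mitosis were level or slightly lower. Of 28 tested, 8 were higher and 20 lower in Tg3, with 0 higher and 4 lower at an unadjusted p under 0.05 and a median log2 fold change of −0.07. The 4 are read against 9.34% of all genes tested that were lower at that p. Leaving out single libraries left 1 to 4 of the list lower at that p, with medians of −0.10 to −0.05. KIF20B, a kinesin of cell division, was at 56.6, 55.0 and 55.1 CPM in NC and at 47.1, 47.0 and 52.6 CPM in Tg3 (log2 fold change −0.18 ± 0.06, edgeR adjusted p = 0.173). PLK4, the kinase of centriole duplication, was at 48.2, 43.6 and 45.2 CPM in NC and at 41.5, 40.4 and 43.5 CPM in Tg3, so that the closest libraries of the 2 groups were nearly at the same level. The mitotic kinase CDK1 and topoisomerase TOP2A had log2 fold changes of 0.02 and 0.00. The DNA replication and mitosis lists thus had medians of opposite sign in the same libraries, though that of mitosis was small.

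Type I interferon-induced genes showed the largest differences but also the largest spread. All 43 genes tested were higher in Tg3, with a median log2 fold change of 0.42 and single values from 0.09 to 1.04, yet 13 reached an unadjusted p under 0.05. IFI6, a mitochondrial protein induced by interferon, was at 649, 784 and 549 CPM in NC and at 953, 1088 and 888 CPM in Tg3, a log2 fold change of 0.56 ± 0.21 (adjusted p = 0.205, edgeR). ISG12(A), of the same small protein family, was at 26.7, 32.4 and 19.1 CPM in NC and at 43.6, 57.6 and 39.0 CPM in Tg3, a log2 fold change of 0.84 ± 0.29. Reads of such related genes can be shared, so the split between them is uncertain. CXCL9, a chemokine that draws T cells, was low at 3.88, 5.99 and 2.35 CPM in NC and at 7.48, 9.45 and 8.29 CPM in Tg3. In all 3 genes the groups did not overlap, and in both groups of IFI6 and of ISG12(A) the replicate 2 library was the highest.

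The replicates of a group differed in these genes about as much as the groups did. The interferon list medians were −0.05, 0.27 and −0.23 in the NC libraries and 0.40, 0.63 and 0.27 in the Tg3 libraries, so that NC replicate 2 and Tg3 replicate 3 were level. The 3 WT libraries stood at −0.18, 0.50 and −0.50, a wider range than that from the NC mean to the highest Tg3 library. Without NC replicate 2, 35 of the 43 genes were higher at an unadjusted p under 0.05, and without Tg3 replicate 2 or without NC replicate 3 this number was 0. It was 2 without NC replicate 1 and 5 without Tg3 replicate 1. With only the NC and Tg3 libraries in the fit it was 39. Neither that fit nor any that left out a library called a member of the list. Counts over all genes tested, in both directions, moved as well. At an unadjusted p under 0.05 there were 2089 in the main fit, 2435 without NC replicate 2 and 2785 with only the NC and Tg3 libraries. There were 1070 without Tg3 replicate 2 and 1091 without NC replicate 3.

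**Figure D2:**
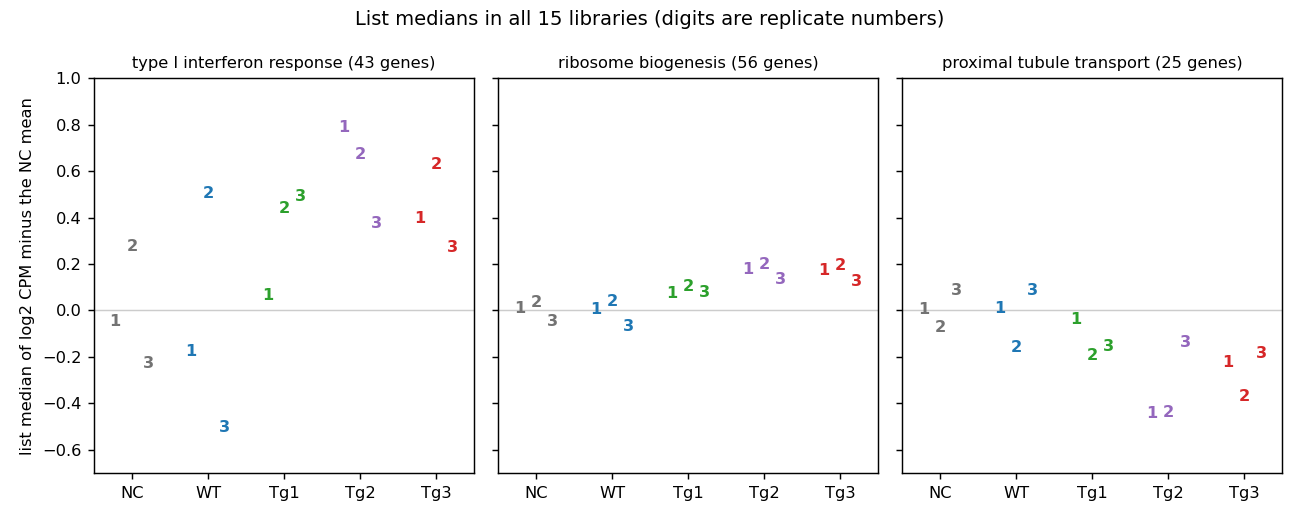
Each digit is a library, numbered by replicate, and its height is the median over the list of the log2 CPM minus the NC mean, for 3 lists across all 5 plasmids. Interferon-induced genes spread from −0.50 to 0.50 within WT alone. For ribosome biogenesis the 3 Tg3 libraries (0.13 to 0.19) lay above all NC and WT libraries, as did those of Tg2 (0.13 to 0.20).

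Antigen presentation genes ranked the libraries of each group in the same order as the interferon genes, with 22 of 22 tested higher in Tg3, 7 of them at an unadjusted p under 0.05, and a median log2 fold change of 0.30. CD74, the chaperone of class II molecules, was at 230, 253 and 219 CPM in NC and at 297, 314 and 276 CPM in Tg3, a log2 fold change of 0.34 ± 0.10 (adjusted p = 0.158, edgeR). HLA-DRA, the symbol given here to the pig class II alpha chain, was at 60.6, 77.3 and 53.4 CPM in NC and at 100, 112 and 88.8 CPM in Tg3, a log2 fold change of 0.65 ± 0.19. The groups did not overlap in either gene. Copies of the class I and class II genes resemble each other closely, and counts for single members are uncertain for that reason. Without NC replicate 2, 17 of the 22 were higher at an unadjusted p under 0.05, and without NC replicate 1, NC replicate 3 or Tg3 replicate 2 this number was 2. Of the leukocyte markers, PTPRC was at 0 in all 3 Tg3 libraries, whereas CD3E was at 19.8 to 20.5 CPM and CD68 at 1.64 to 2.37 CPM there. The part of these markers in the list's values was not tested.

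NF-kappa B and TNF response genes were higher in 33 of 34 cases, 18 at an unadjusted p under 0.05 and 0 lower at that p, with a median log2 fold change of 0.24. TNFRSF21 (death receptor 6) was at 154, 166 and 146 CPM in NC and at 206, 210 and 188 CPM in Tg3. Its groups were well apart, and the log2 fold change was 0.37 ± 0.07 (adjusted p = 0.113, edgeR). NFKBIB, an inhibitor that holds NF-kappa B in the cytoplasm, was at 44.2, 42.3 and 40.3 CPM in NC and at 51.8, 51.8 and 51.1 CPM in Tg3, a log2 fold change of 0.29 ± 0.08. The cytokine genes IL6, TNF and CXCL8 had log2 fold changes of 0.59, 0.57 and 0.42. Without Tg3 replicate 2 the number at an unadjusted p under 0.05 was 7, without NC replicate 3 it was 8, without NC replicate 1 it was 9 and without Tg3 replicate 1 it was 11.

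Immediate early genes, which respond within minutes to growth factors or stress, were higher in Tg3 than in NC in 24 of 30 cases, 7 at an unadjusted p under 0.05 and 0 lower at that p, with a median log2 fold change of 0.23. MYC, the growth-promoting transcription factor, was at 219, 236 and 223 CPM in NC and at 293, 281 and 274 CPM in Tg3. Every Tg3 library was above every NC library, with a log2 fold change of 0.32 ± 0.07 (adjusted p = 0.143 in edgeR and 0.00681 in DESeq2). IER3, a stress-induced regulator of cell survival, was at 179, 195 and 186 CPM in NC and at 259, 230 and 249 CPM in Tg3. Its log2 fold change was 0.40 ± 0.09 (adjusted p = 0.144 in edgeR and 0.0108 in DESeq2). Higher levels of MYC and IER3 than in NC were not particular to Tg3. Mean MYC levels were 279, 286 and 323 CPM in WT, Tg1 and Tg2, against 283 CPM in Tg3 and 226 CPM in NC. Mean IER3 levels were 262, 254 and 291 CPM in WT, Tg1 and Tg2, against 246 CPM in Tg3 and 187 CPM in NC. FOS and JUN, the prototypes of the class, were level, with mean levels of 549 CPM in NC and 548 CPM in Tg3 for FOS and a log2 fold change of −0.03 for JUN. Against WT the same 30 genes had a median log2 fold change of −0.14, with 1 higher and 10 lower in Tg3 at an unadjusted p under 0.05.

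Genes that limit ERK signalling and ligands of the EGF receptor were higher in 15 of 17 cases, 7 at an unadjusted p under 0.05, with 0 lower at that p and a median log2 fold change of 0.25. SPRY2, an inhibitor of receptor tyrosine kinase signalling, was at 14.1, 15.2 and 14.6 CPM in NC and at 19.4, 16.8 and 18.0 CPM in Tg3. PHLDA1, a gene induced by ERK, was at 10.8, 11.3 and 10.4 CPM in NC and at 14.3, 14.6 and 12.6 CPM in Tg3. For both the groups were apart, with log2 fold changes of 0.31 ± 0.09 and 0.35 ± 0.11 (both with edgeR adjusted p = 0.167). The receptor gene EGFR itself had a log2 fold change of −0.05. The number at an unadjusted p under 0.05 was 2 without NC replicate 3, 3 without NC replicate 1 and 4 without Tg3 replicate 2.

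**Figure D3:**
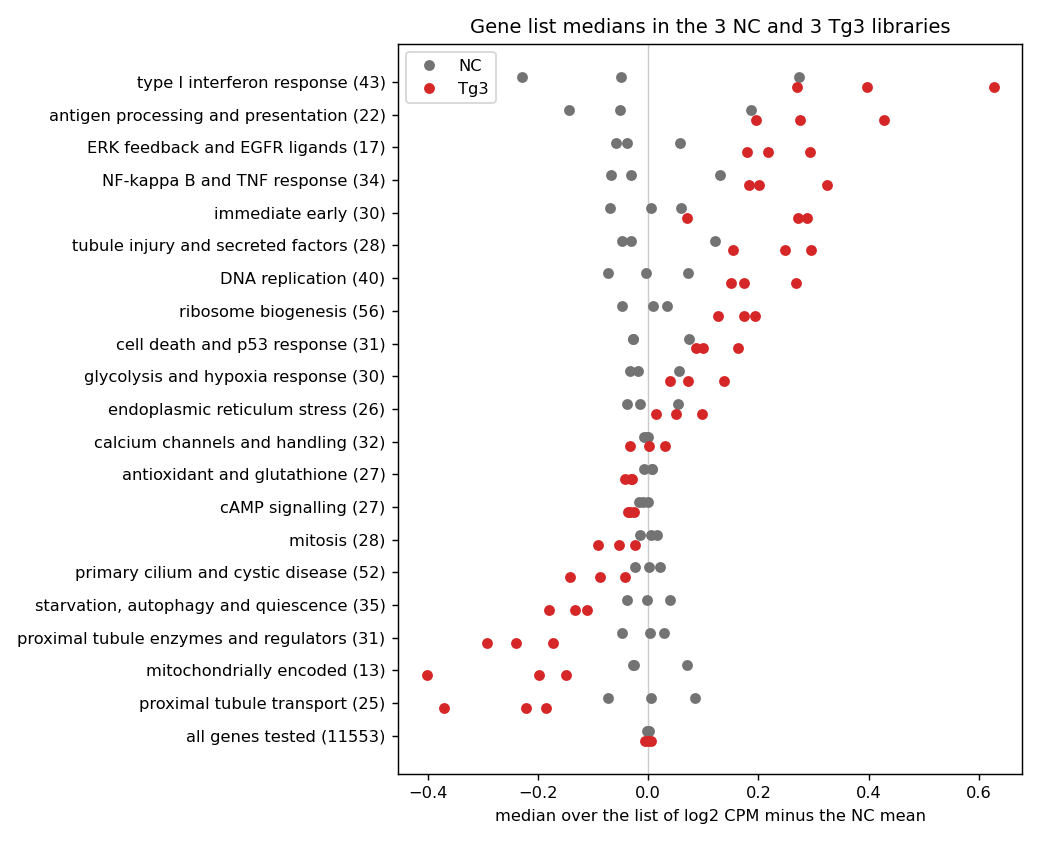
Each row is a gene list with its number of genes tested, and each point is a library, placed at the list median of the log2 CPM minus the NC mean. Tg3 libraries (red) lay above all NC libraries (grey) in 8 of 20 lists and below all NC libraries in 8, while the median over all genes tested stayed near 0 in all 6 libraries.

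Transporters of the proximal tubule were lower in Tg3 as a group. Of 25 tested, 24 were lower and 1 higher, with 14 lower and 0 higher at an unadjusted p under 0.05 and a median log2 fold change of −0.26. SLC17A1 (ENSSSCG00000001107), a sodium-dependent phosphate and urate transporter, was at 141, 133 and 159 CPM in NC and at 112, 99.0 and 118 CPM in Tg3, a log2 fold change of −0.39 ± 0.09 (adjusted p = 0.144, edgeR). SLC47A2, which extrudes organic cations into the urine, was at 8.81, 8.12 and 8.71 CPM in NC and at 5.71, 5.51 and 5.24 CPM in Tg3, a log2 fold change of −0.64 ± 0.16. The 3 Tg3 libraries were below all NC libraries in both genes. The endocytic receptor gene LRP2 (megalin) was at 301, 295 and 303 CPM in NC and at 248, 229 and 255 CPM in Tg3, the phosphate transporter gene SLC34A1 had a log2 fold change of −0.39 and the glucose transporter gene SLC5A2 one of −0.31. Without Tg3 replicate 2, 9 of the 25 were lower at an unadjusted p under 0.05. In bulk RNA fewer cells of a type and less RNA per cell cannot be told apart.

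Enzymes and regulators of the proximal tubule were lower in 21 of 31 cases, 16 at an unadjusted p under 0.05, and higher in 10, of which 3 at that p, with a median log2 fold change of −0.24. AGXT2, a mitochondrial aminotransferase, was at 51.4, 51.4 and 52.9 CPM in NC and at 40.0, 39.0 and 44.1 CPM in Tg3. The groups were separated by more than the spread of either, with a log2 fold change of −0.34 ± 0.07 (adjusted p = 0.139, edgeR). ACADSB, which oxidises branched-chain acyl-CoA, was at 85.3, 77.3 and 88.2 CPM in NC and at 69.7, 68.0 and 67.9 CPM in Tg3. The peptidase gene ANPEP had a log2 fold change of −0.24, whereas the peptidase genes DPP4 and ENPEP had values of 0.21 and 0.22. The transcription factor gene HNF4A, which maintains tubule identity, had a log2 fold change of −0.05.

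For both proximal tubule lists the Tg3 libraries lay below all 6 NC and WT libraries. The transport list stood at 0.00, −0.07 and 0.08 in NC, at 0.01, −0.16 and 0.08 in WT and at −0.22, −0.37 and −0.19 in Tg3. Replicate 2 was the lowest library of NC, WT and Tg3 in this list and the highest of each in the interferon list. Relative to the other plasmids, the transport list had a median log2 fold change of −0.21 for Tg3 against WT, −0.11 against Tg1 and 0.07 against Tg2. The low enzyme list was not particular to Tg3, since its Tg2 medians of −0.40, −0.34 and −0.16 were also below all NC and WT libraries. For Tg3 against Tg2 the enzyme list had a median log2 fold change of 0.08.

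All 13 protein genes of the mitochondrial genome were lower in Tg3, 11 at an unadjusted p under 0.05, with a median log2 fold change of −0.26. ATP8, a subunit of ATP synthase, was at 126, 122 and 124 CPM in NC and at 106, 88.9 and 103 CPM in Tg3, a log2 fold change of −0.32 ± 0.08 (adjusted p = 0.144, edgeR). ATP6, of the same enzyme and encoded by an overlapping transcript, was at 2258, 2290 and 2365 CPM in NC and at 2110, 1892 and 2007 CPM in Tg3, a log2 fold change of −0.20 ± 0.06. In both genes Tg3 replicate 2 was the lowest library and the groups did not overlap. CYTB, the cytochrome of complex III, had the lowest value of the list, with a log2 fold change of −0.41. The mitochondrial transcripts are copied as long precursors, so the 13 values are not independent of each other. Without Tg3 replicate 2 or without NC replicate 3, 7 genes were lower at an unadjusted p under 0.05. WT replicate 2, at −0.23, lay within the Tg3 range of −0.40 to −0.15.

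Genes induced by starvation, autophagy and quiescence were lower in 27 of 35 cases, 19 at an unadjusted p under 0.05 against 2 higher, with a median log2 fold change of −0.14. TP53INP1, which links p53 to autophagy, was at 242, 234 and 266 CPM in NC and at 203, 181 and 209 CPM in Tg3, a log2 fold change of −0.32 ± 0.08 (adjusted p = 0.144, edgeR). SQSTM1, the cargo receptor p62, was at 499, 484 and 514 CPM in NC and at 435, 424 and 440 CPM in Tg3. EIF4EBP2, a repressor of translation, was at 205, 194 and 208 CPM in NC and at 168, 162 and 170 CPM in Tg3. All 3 genes had Tg3 libraries below every NC library, and the log2 fold changes of SQSTM1 and EIF4EBP2 were −0.21 ± 0.05 and −0.28 ± 0.07. The number lower at an unadjusted p under 0.05 was 10 without Tg3 replicate 2 and 11 without NC replicate 3. The Tg3 list medians of −0.13, −0.18 and −0.11 were below those of all NC (−0.04 to 0.04) and all WT libraries (−0.05 to 0.06). The same held for the Tg2 list medians of −0.14, −0.27 and −0.10.

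**Figure D4:**
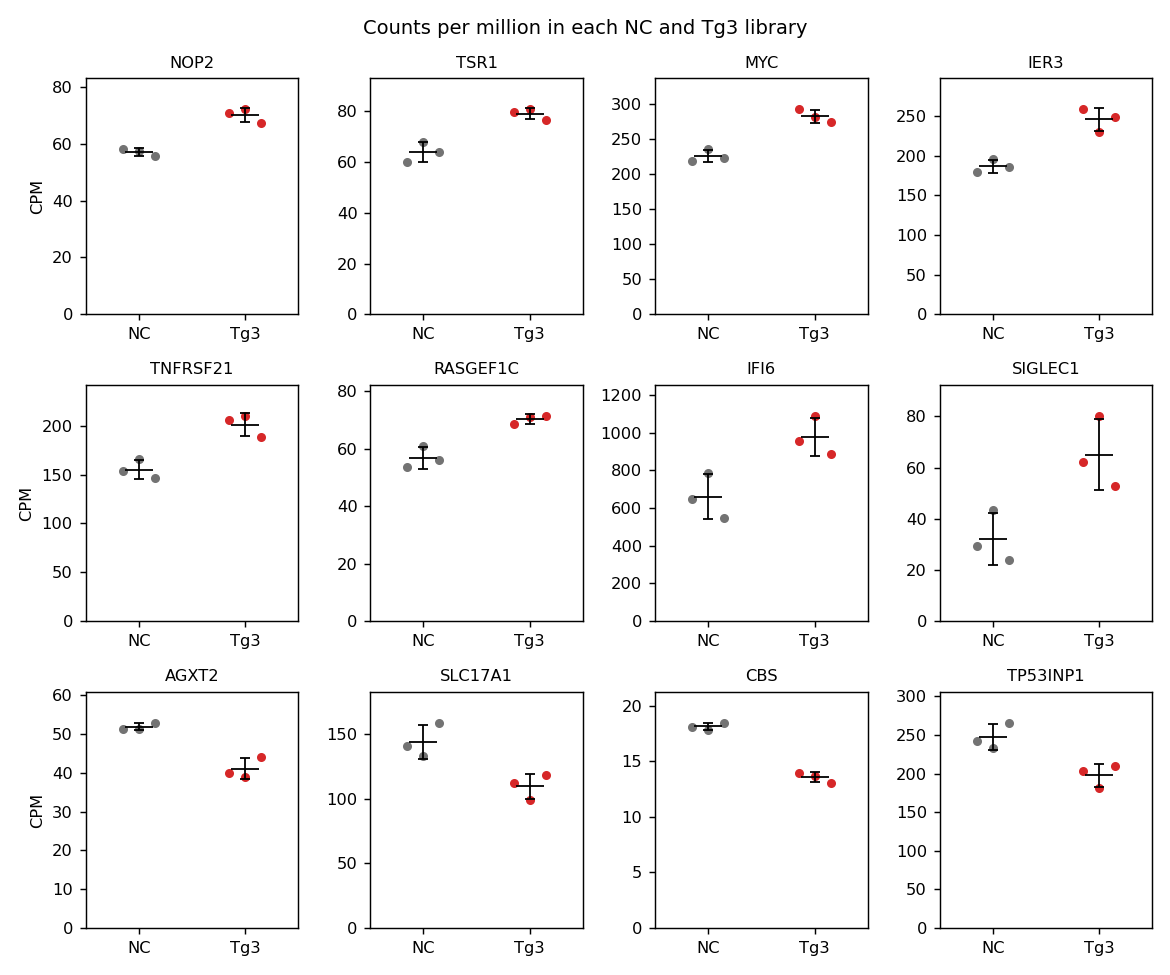
Points are the CPM of single libraries, and the horizontal bar and whiskers are the mean and SD of 3 libraries, on axes that start at 0. The 12 genes were taken from those named in the text, and in each of them the NC and Tg3 libraries did not overlap, although none reached an adjusted p of 0.05 in edgeR.

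Genes of the primary cilium and of cystic kidney disease, the pathway in which polycystin-2 itself acts, were lower in 43 of 52 cases and higher in 9, with 10 lower and 0 higher at an unadjusted p under 0.05 and a median log2 fold change of −0.10. DYNC2LI1, a light chain of the dynein that carries cargo down the cilium, was at 76.6, 69.2 and 77.4 CPM in NC and at 57.1, 57.1 and 63.6 CPM in Tg3. TCTN3, of the transition zone at the base of the cilium, was at 28.5, 27.4 and 28.7 CPM in NC and at 24.9, 23.1 and 24.1 CPM in Tg3. Both genes had separate groups, with log2 fold changes of −0.33 ± 0.10 (edgeR adjusted p = 0.167) and −0.23 ± 0.06 (adjusted p = 0.147). PKHD1, the gene of recessive polycystic kidney disease, had a log2 fold change of −0.14, and GANAB, a gene of dominant polycystic disease, one of −0.05. The share of members lower at an unadjusted p under 0.05 is read against 9.34% over all genes, and it was 3 genes without Tg3 replicate 2, 5 without NC replicate 3 and 6 without Tg3 replicate 1.

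Calcium handling and cAMP signalling, the second messenger systems most often linked to polycystins, showed no common direction. Among 32 calcium genes, 18 were higher and 14 lower, with 5 at an unadjusted p under 0.05 in each direction and a median log2 fold change of 0.01. STIM1, the calcium sensor of the endoplasmic reticulum, was at 60.5, 59.0 and 56.3 CPM in NC and at 71.0, 76.2 and 67.0 CPM in Tg3, a log2 fold change of 0.28 ± 0.10 (edgeR adjusted p = 0.188). Every Tg3 library of STIM1 was above every NC library. The inositol trisphosphate receptor genes ITPR1, ITPR2 and ITPR3, through which calcium leaves the endoplasmic reticulum, had log2 fold changes of 0.10, 0.01 and 0.00. The counts at an unadjusted p under 0.05 were 2 higher and 2 lower without Tg3 replicate 2, 3 and 3 without NC replicate 1, 3 and 2 without NC replicate 3, and 4 and 3 without Tg3 replicate 1.

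Among 27 cAMP genes, 11 were higher and 16 lower, 4 in each direction at an unadjusted p under 0.05, with a median log2 fold change of −0.05. AKAP1, which anchors protein kinase A at mitochondria, was at 44.4, 47.6 and 42.9 CPM in NC and at 56.6, 57.5 and 53.8 CPM in Tg3, a log2 fold change of 0.32 ± 0.09 (edgeR adjusted p = 0.158). PPP1R1A, a phosphatase inhibitor switched on by protein kinase A, was at 74.0, 67.5 and 77.0 CPM in NC and at 63.2, 65.5 and 65.4 CPM in Tg3, a log2 fold change of −0.17 ± 0.05. The vasopressin receptor gene AVPR2, whose product raises cAMP in collecting duct cells, was level at a log2 fold change of −0.02. Without Tg3 replicate 2 or NC replicate 1 the counts at an unadjusted p under 0.05 were 1 higher and 4 lower, without NC replicate 3 they were 1 and 2, and without Tg3 replicate 1 they were 3 and 3.

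Genes of tubule injury and secreted factors were higher in 24 of 28 cases, 14 at an unadjusted p under 0.05 against 1 lower, with a median log2 fold change of 0.23. CP, which encodes the copper oxidase ceruloplasmin, was at 21.6, 25.6 and 17.5 CPM in NC and at 35.3, 36.3 and 34.1 CPM in Tg3, the largest fold of the list with a log2 value of 0.71 ± 0.17 (adjusted p = 0.144, edgeR). KRT7, a keratin of simple epithelia, was at 467, 460 and 454 CPM in NC and at 513, 520 and 504 CPM in Tg3, a small but even difference of 0.15 ± 0.04 on the log2 scale. The secreted proteins osteopontin (SPP1), clusterin (CLU) and endothelin-1 (EDN1) had log2 fold changes of 0.27, 0.35 and 0.57. The epithelial injury markers LCN2 and VIM had values of 0.11 and 0.01.

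Glycolysis and hypoxia genes were higher in 26 of 30 cases, with 6 higher and 1 lower at an unadjusted p under 0.05 and a median log2 fold change of 0.10. HK2, the first enzyme of glycolysis, was at 60.1, 64.9 and 51.4 CPM in NC and at 78.4, 85.2 and 72.7 CPM in Tg3, a log2 fold change of 0.42 ± 0.11 (adjusted p = 0.152, edgeR). ADM, which encodes the vasodilator adrenomedullin, was at 66.1, 73.6 and 64.3 CPM in NC and at 90.7, 88.8 and 84.5 CPM in Tg3. The log2 fold change of ADM was 0.37 ± 0.09 (adjusted p = 0.144 in edgeR and 0.0308 in DESeq2). Mean ADM levels were 87.0, 98.35 and 112 CPM in WT, Tg1 and Tg2, against 88.0 CPM in Tg3 and 68.0 CPM in NC. The difference of ADM from NC was thus not particular to Tg3. HK2 and ADM both stood apart from NC in every Tg3 library, while the glycolytic enzyme genes GPI, PGK1 and PKM each had a log2 fold change of 0.02.

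In these lists the counts were also smaller without single libraries, with 2 glycolysis genes and 9 injury genes higher at an unadjusted p under 0.05 without Tg3 replicate 2. Without NC replicate 1 and without NC replicate 3 the glycolysis count was 3 and 2.

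Endoplasmic reticulum stress genes had a median log2 fold change of 0.05, with 5 of 26 higher and 0 lower at an unadjusted p under 0.05. DNAJC3, a chaperone that restrains the stress kinase PERK, was at 59.0, 58.4 and 53.7 CPM in NC and at 63.4, 67.0 and 61.0 CPM in Tg3, and for the chaperone gene DNAJB9 the NC libraries (22.9 to 25.6 CPM) overlapped those of Tg3 (24.8 to 28.7 CPM). Antioxidant and glutathione genes had a median of −0.04, with 8 of 27 lower and 1 higher at that p. SLC7A11, the cystine importer, was at 41.5, 36.7 and 42.0 CPM in NC and at 30.3, 30.2 and 34.1 CPM in Tg3, and EPHX1, an epoxide hydrolase, had a log2 fold change of −0.35 ± 0.10. The p53 and cell death list had a median of 0.13, with 6 of 31 higher and 2 lower at that p, among them the phosphatase gene PPM1D with a log2 fold change of 0.23 ± 0.08. The p53 target CDKN1A, which arrests the cell cycle, had a value of −0.04. Without Tg3 replicate 2 or without NC replicate 3, 0 stress genes and 1 gene of the p53 list were higher at that p, and 4 antioxidant genes were lower.

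Other genes with the smallest p-values belonged to no list. CBS (cystathionine beta-synthase), which draws homocysteine into cysteine synthesis, was at 18.1, 17.9 and 18.5 CPM in NC and at 13.9, 13.7 and 13.1 CPM in Tg3. It had the smallest unadjusted p of all genes tested (1.8e-05, edgeR), with a log2 fold change of −0.42 ± 0.07 (adjusted p = 0.113, edgeR). DESeq2 did not call CBS. RASGEF1C, an exchange factor for small GTPases, was at 53.6, 60.8 and 55.9 CPM in NC and at 68.5, 71.1 and 71.3 CPM in Tg3, a log2 fold change of 0.31 ± 0.05 (adjusted p = 0.113). RNPC3, a protein of the minor spliceosome, was at 77.5, 73.5 and 80.6 CPM in NC and at 61.5, 57.5 and 64.8 CPM in Tg3. SLC7A1, the main importer of arginine, was at 69.5, 72.5 and 69.6 CPM in NC and at 86.5, 89.3 and 83.0 CPM in Tg3. The log2 fold changes of RNPC3 and SLC7A1 were −0.33 ± 0.07 and 0.29 ± 0.06. HPS6, of a complex that builds lysosome-related organelles, was higher with a log2 fold change of 0.26 ± 0.05. The dynein docking gene ODAD4, the mitochondrial carrier gene SLC25A16, the zinc finger gene ZFP90, the protease gene PRSS22 and ANKRD53 were lower, with log2 fold changes from −0.69 (ANKRD53) to −0.28 (ZFP90) and no overlap between the groups. The gene ENSSSCG00000031741, for which no symbol was found, was at 107, 104 and 98.9 CPM in NC and at 122, 131 and 122 CPM in Tg3.

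The genes with the largest folds included several of low abundance. SIGLEC1, a sialic acid receptor of macrophages that interferon induces, was at 29.2, 43.4 and 23.7 CPM in NC and at 62.4, 80.2 and 52.9 CPM in Tg3, a log2 fold change of 1.02 ± 0.39 (adjusted p = 0.212, edgeR). IL4I1, a secreted amino acid oxidase, was at 14.6, 23.5 and 10.4 CPM in NC and at 30.5, 41.9 and 28.7 CPM in Tg3. NUGGC, a nuclear GTPase, was at 3.70, 5.53 and 3.16 CPM in NC and at 7.71, 10.5 and 7.12 CPM in Tg3. In all 3 genes replicate 2 was the highest library of each group, as in the interferon list, and the log2 fold changes of IL4I1 and NUGGC were 1.05 ± 0.43 and 1.02 ± 0.30. TCHHL1 was at 1.78 ± 0.575 CPM in NC and 3.85 ± 0.819 CPM in Tg3 (SD, 3 libraries each). On the lower side the Wnt receptor gene FZD2 was at 4.28, 3.09 and 3.35 CPM in NC and at 2.67, 1.62 and 1.72 CPM in Tg3, a log2 fold change of −0.82 ± 0.27. PDK4, a kinase that holds back pyruvate oxidation, NYAP1 and LURAP1 had log2 fold changes of −0.77, −0.73 and −0.73, all at means below 4 CPM in NC.

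Tg3 was then tested directly against the other PKD2 plasmids, which leaves the NC libraries out of the contrast. Against WT, 0 genes (0.0%) were called, the smallest adjusted p was 0.0532, and 1112 genes (9.63%) were higher and 1103 (9.55%) lower at an unadjusted p under 0.05, while DESeq2 called 116. Of the ribosome biogenesis list, 44 of 56 genes were higher in Tg3 than in WT at that p and 1 lower, with a median log2 fold change of 0.17. Of the DNA replication list, 29 of 40 were higher and 0 lower, with a median of 0.25, and of the autophagy list 1 of 35 was higher and 22 lower, with a median of −0.15. One library decided the count, since 1321 genes were called without WT replicate 2.

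Against Tg2, 0 genes (0.0%) were called, the smallest adjusted p was 0.822, and 329 genes (2.85%) were higher and 344 (2.98%) lower at an unadjusted p under 0.05. DESeq2 called 0 as well. List medians of Tg3 against Tg2 ran from −0.22 for interferon-induced genes, where all 43 were lower in Tg3 and 0 at an unadjusted p under 0.05, to 0.09 for mitosis genes, where 27 of 28 were higher and 6 at that p. A p above the threshold does not show that both mutants acted alike.

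Against Tg1, 71 genes passed both thresholds, of which 64 (0.554%) were higher and 7 (0.0606%) lower in Tg3. At an unadjusted p under 0.05, 1026 genes (8.88%) were higher and 802 (6.94%) lower. DMXL1, which regulates the proton pump of endosomes, was at 85.5, 92.1 and 95.3 CPM in Tg1 and at 119, 120 and 122 CPM in Tg3, a log2 fold change of 0.40 ± 0.04 (adjusted p = 0.00243, edgeR). MICAL2, an oxidase that takes actin filaments apart, was at 24.9, 26.2 and 28.7 CPM in Tg1 and at 38.0, 36.5 and 37.2 CPM in Tg3, a log2 fold change of 0.48 ± 0.06 (adjusted p = 0.00702). MCC, a gene first found mutated in colorectal cancer, RBL1, a relative of the retinoblastoma protein, and DDX21 were higher by 0.41, 0.31 and 0.31 on the log2 scale. In DMXL1 and MICAL2 the NC libraries, at 114 to 122 and 36.0 to 36.9 CPM, were at the Tg3 level. Over the 64 genes the median log2 fold change was 0.37 against Tg1 and 0.04 against NC, 2 contrasts that share the Tg3 libraries.

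The 7 genes lower in Tg3 than in Tg1 had a median log2 fold change of −0.54 against Tg1 and −0.31 against NC, and here too both contrasts use the same Tg3 libraries. CBS was at 17.5, 16.2 and 16.7 CPM in Tg1, a log2 fold change of −0.31 ± 0.07 (adjusted p = 0.0452, edgeR). Its Tg2 libraries, at 13.8, 12.5 and 14.1 CPM, were at the Tg3 level. CCDC122, SLC4A11, a membrane transporter that conducts protons, and TRAPPC6A, of a vesicle tethering complex, had log2 fold changes of −0.66, −0.72 and −0.31 against Tg1. Leaving out single libraries of Tg3 or Tg1 brought the number of calls to between 3 and 115, with 3 without Tg3 replicate 3, 4 without Tg3 replicate 2, 14 without Tg3 replicate 1, 4 without Tg1 replicate 1, 6 without Tg1 replicate 2 and 115 without Tg1 replicate 3.

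**Figure D5:**
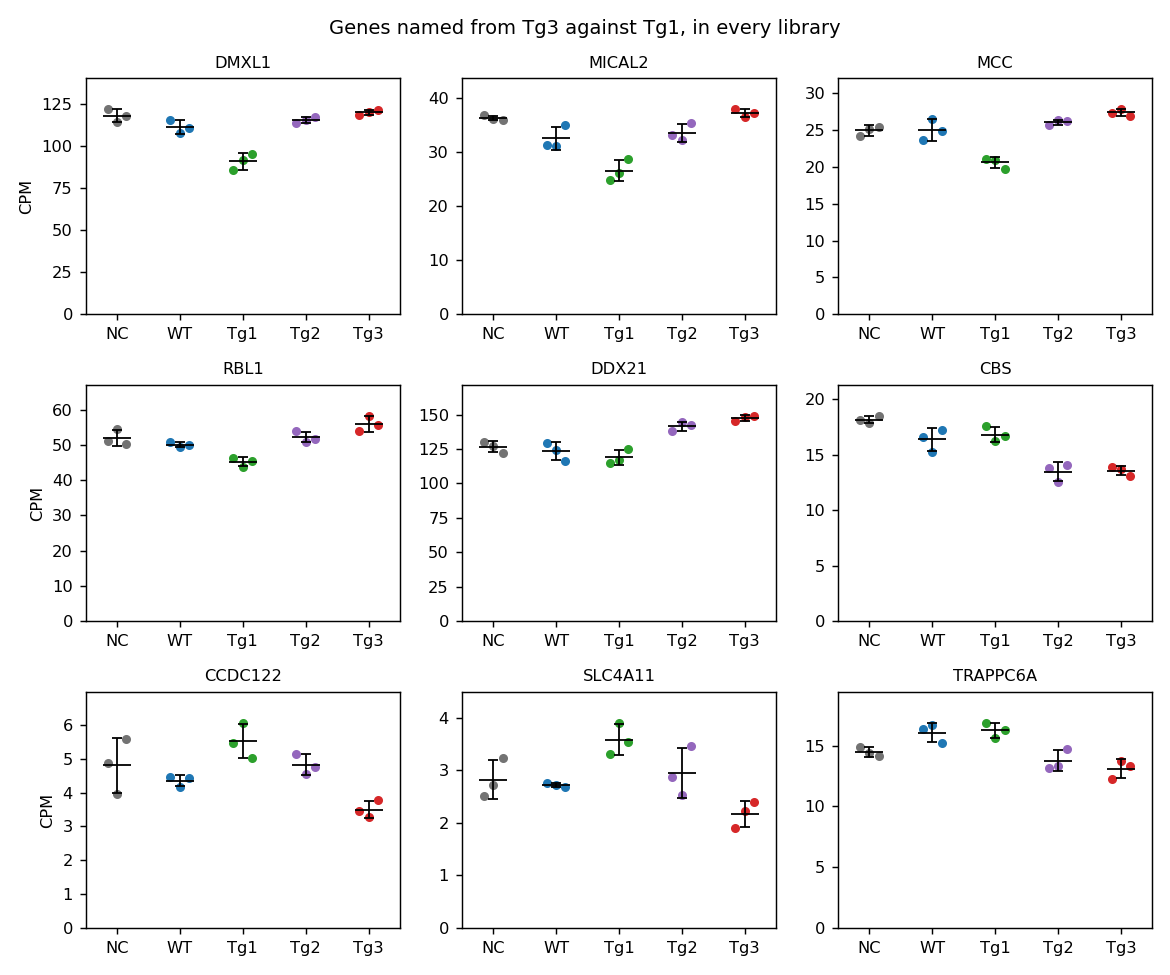
Points are the CPM of single libraries in each of the 5 groups, with the mean and SD of 3 libraries, on axes that start at 0. In DMXL1 and MICAL2 the Tg1 libraries stand below all other groups, whereas in CBS the Tg3 and Tg2 libraries stand below NC, WT and Tg1.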

How the data were processed

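RNA-seq of 15 LLC-PK1 libraries was analysed from the 1 table of counts that the authors deposited. Per the labels and the study's methods, mRNA was selected with oligo(dT), reads were quantified with Salmon against pig transcripts and summed per Ensembl gene, and the authors made calls with DESeq2, whose tables of fold changes are not used here. The kit's strand setting is not given in the sources used here, so overlapping and antisense genes cannot be told apart. Groups came from the labels.

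Genes with a mean of 2 or more CPM over the 15 libraries were tested with edgeR 4.0.16 (R 4.3.3, limma 3.58.1; TMM normalization, 1 model of 5 group means, quasi-likelihood F test, 10 residual degrees of freedom, Benjamini-Hochberg adjustment over 11553 genes). A call needed an adjusted p of at most 0.05 and a fold of at least 0.26 on the log2 scale, as in the study's methods. The standard error is the log2 fold change divided by the square root of F. CPM values use TMM-scaled library sizes, except those of the filter and the cell type markers, which use library totals, and log2 CPM a prior count of 2. With 3 libraries against 3, the exact two-sided permutation test of 1 gene cannot go below p = 0.1. That value was reached by 66 of the 70 named genes. Most named genes were chosen by small p, large fold or non-overlap in these same libraries, so that count adds no support. Over all genes tested, every Tg3 library lay above every NC library in 13.4% and below in 13.9%. Scripts were tested on simulated data. Alternatives were DESeq2 1.42.0 (with its default filter on mean counts before adjustment), other filters and scalings, a replicate block and leaving out libraries. Figures were drawn with matplotlib 3.10.9.

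Symbols came from the study's supplementary lists of identifiers and then from an Ensembl gene name table, and 10185 of the 11553 genes had one. The members, gene lists and tests were chosen with earlier results of these data known. Named genes were those called in the fit with or without the block, the 10 with the smallest p in each direction among non-overlapping genes past the fold threshold, the 5 largest folds in each direction at an unadjusted p under 0.05, the 2 smallest p in each list, MYC, ADM and IER3, and up to 5 calls in each direction against WT, Tg1 or Tg2, plus up to 2 genes without a symbol in each direction. List members named in addition were chosen after their values were seen, to show each list's known genes. A few genes that the rule named are not reported here.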

Additional observations from a re-analysis of the deposited data

Results flagged for a closer look

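The 71 genes called between Tg3 and Tg1 meet the criterion for a difference between 2 treatments' effects, since the NC level drops out when one plasmid's effect is subtracted from the other's and the contrast was tested directly. Of these, 64 were higher and 7 lower in Tg3. The 64 had a median log2 fold change of 0.37 against Tg1 and 0.04 against NC, 2 contrasts that share the Tg3 libraries. Groups of 3 libraries are too small for the check of single outlying libraries.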

How the results depend on the processing

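For Tg3 against NC the count of 0 calls was also found with DESeq2 size factors in edgeR, without the filter on low counts, with filterByExpr, with only these 2 groups, without the fold threshold and without any 1 library. DESeq2 called 52 genes (55 when fitted on all genes and filtered afterwards). Against WT the count was 116 and 107 under the same DESeq2 settings and 0 to 1321 without single libraries. Against Tg1 it was 139 and 137 with DESeq2, 118 without the fold threshold, 32 with only these 2 groups and 3 to 115 without single libraries. Genes at an unadjusted p under 0.05 against NC numbered 1070 to 2435 without single libraries. The causes were not tested.

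Replicate numbers were not taken to pair the libraries. Deviations from the group means of same-numbered Tg3 and NC libraries correlated at 0.0322, 0.490 and 0.361, and Tg3 replicate 1 correlated best with NC replicate 3 (0.136). Tg3 replicate 2 and NC replicate 3 correlated at −0.418, and Tg3 replicate 3 and NC replicate 2 at −0.437. The same-numbered NC library was thus the best match for Tg3 replicates 2 and 3 but not for replicate 1. A replicate block over all 15 libraries called 11 genes against NC, 111 against WT and 108 against Tg1, and 10 of the 11 were among the 52 DESeq2 calls. With only the 2 groups compared, the block called 983 against NC (4047 at an unadjusted p under 0.05), 506 against WT, 0 against Tg1 and 2 against Tg2. Beside 983 of 11553 genes tested, that block called 36 of the 43 interferon genes and 11 of the 25 transport genes against NC, with list medians of 0.43 and −0.27. It also called 15 of 31 proximal tubule enzymes, 14 of 30 immediate early genes and 14 of 22 antigen presentation genes, but 0 of 28 mitosis genes. The block over all 15 libraries put 37 interferon genes at an unadjusted p under 0.05, beside 2734 of all genes tested in either direction, and called 0 interferon genes.

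All 62 named genes of Tg3 against NC and the 9 of Tg3 against Tg1 kept their direction in every alternative, and 1 of 280 list medians changed sign. Most of these genes were chosen by p, fold or non-overlap in the same libraries, and every alternative reused the same counts. A kept direction was therefore largely set by that choice and adds no support. The smallest library held 20216200 counts, and what this depth limits was not tested.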
